A study of Mus musculus with 6 samples.

Results

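The 42 genes described here encode actin, the proteins that build, bind and anchor actin filaments, and serum response factor (SRF), a transcription factor that drives many of them. They form a hand-made list, each looked up by the single gene symbol that the array's annotation gives each probe set, with 1 probe set per gene, the one with the highest mean over all 6 arrays. Of the 42, 39 were found among the 18193 genes with a single symbol, Mkl1 and Mkl2 under their newer symbols Mrtfa and Mrtfb. Arpc1b, Arpc3 and Actr2 were not analysed here.

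Total RNA came from intestinal epithelial cell preparations of mice on a mixed background of 129/SV and C57BL/6, with 1 Affymetrix array per mouse. All 6 mice carried a floxed Pggt-Iβ gene (Pggt1b), whose product is the beta subunit of the enzyme GGTase-I. The 3 controls were VillincreERT2 negative and the 3 mice called deficient were VillincreERT2 positive. All were injected with 1 mg tamoxifen on each of 3 days, and cells were taken on day 6 counted from the first injection. The recombinase is driven by the villin promoter, which is active in the intestinal epithelium, so other cells in the preparation are not its targets. Only the deficient mice carried it, and its own effect cannot be told apart from that of the deletion. The sources used here give neither age nor sex, nor the stretch of intestine.

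GGTase-I, a protein prenyltransferase, attaches a geranylgeranyl lipid to the end of its substrate proteins, which anchors them in membranes. The cofactors of SRF encoded by Mkl1 and Mkl2 bind free actin monomers. When monomers are used up by filament growth, the cofactors enter the nucleus and act with SRF on genes for actin and its partners, through a sequence called the CArG box. In the intestine, actin filaments form the core of the microvilli, the belt at the cell junctions and the anchors to the matrix.

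Values are the authors' log2 expression values, and a change is the deficient mean minus the control mean on that scale, ± its standard error. A gene was tested with limma if it lay above the level 5 on at least 3 arrays, and it was called at a Benjamini-Hochberg adjusted p under 0.05 over all 8893 genes tested. Of the 42 genes, 34 were tested. Of these 33 lay above 5 on all 6 arrays, while Evl did so on the control arrays alone, so it entered only through the group in which it was high. Tagln, Flna, Enah and Pfn2 lay at or below 5 on every array, and Pdlim7 lay above it on 2 arrays. The arrays were alike in the share of probe sets above 5, between 35.5% and 36.5%. Their correlations over the genes tested ran from 0.953 to 0.98 within groups and from 0.903 to 0.969 between groups. The targeted gene, Pggt1b, overlapped between the groups, at 9.30, 9.55 and 9.33 in controls and 9.75, 8.88 and 8.83 in deficient replicates 1, 2 and 3 (change -0.24 ± 0.27, limma adjusted p = 0.678). Whether its probes lie in the deleted part is unknown here, and the groups rest on the labels.

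Most of the actin machinery was measured at much the same level in both groups, and 2 of its genes passed the test. Srf and the filament-elongation factor Evl were called lower, and no member was called higher. These 2 are 5.88% of the 34 tested, beside 2.09% of all genes tested (186 of 8893; 1.98% lower and 0.112% higher), and a count this small says nothing about the list as a whole. Members had a median change of 0.06, against -0.04 for all genes tested, with 15 means lower and 19 higher in the deficient arrays. The groups did not overlap for 10 members, or 29.4%, close to the 25.7% of all genes tested. In 7 of the 10 the deficient arrays lay above the controls and in 3 below them. The changes of 23 of the 34 were under 0.5 in size, and for 23 the 95% interval of the change lay between -1 and 1. Small changes were not particular to the members. Their median change in size was 0.285, against 0.265 for all genes tested. A change of at least 1 in size was seen in 8.82% of them, beside 7.53% of all genes tested.

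**Figure D1:**
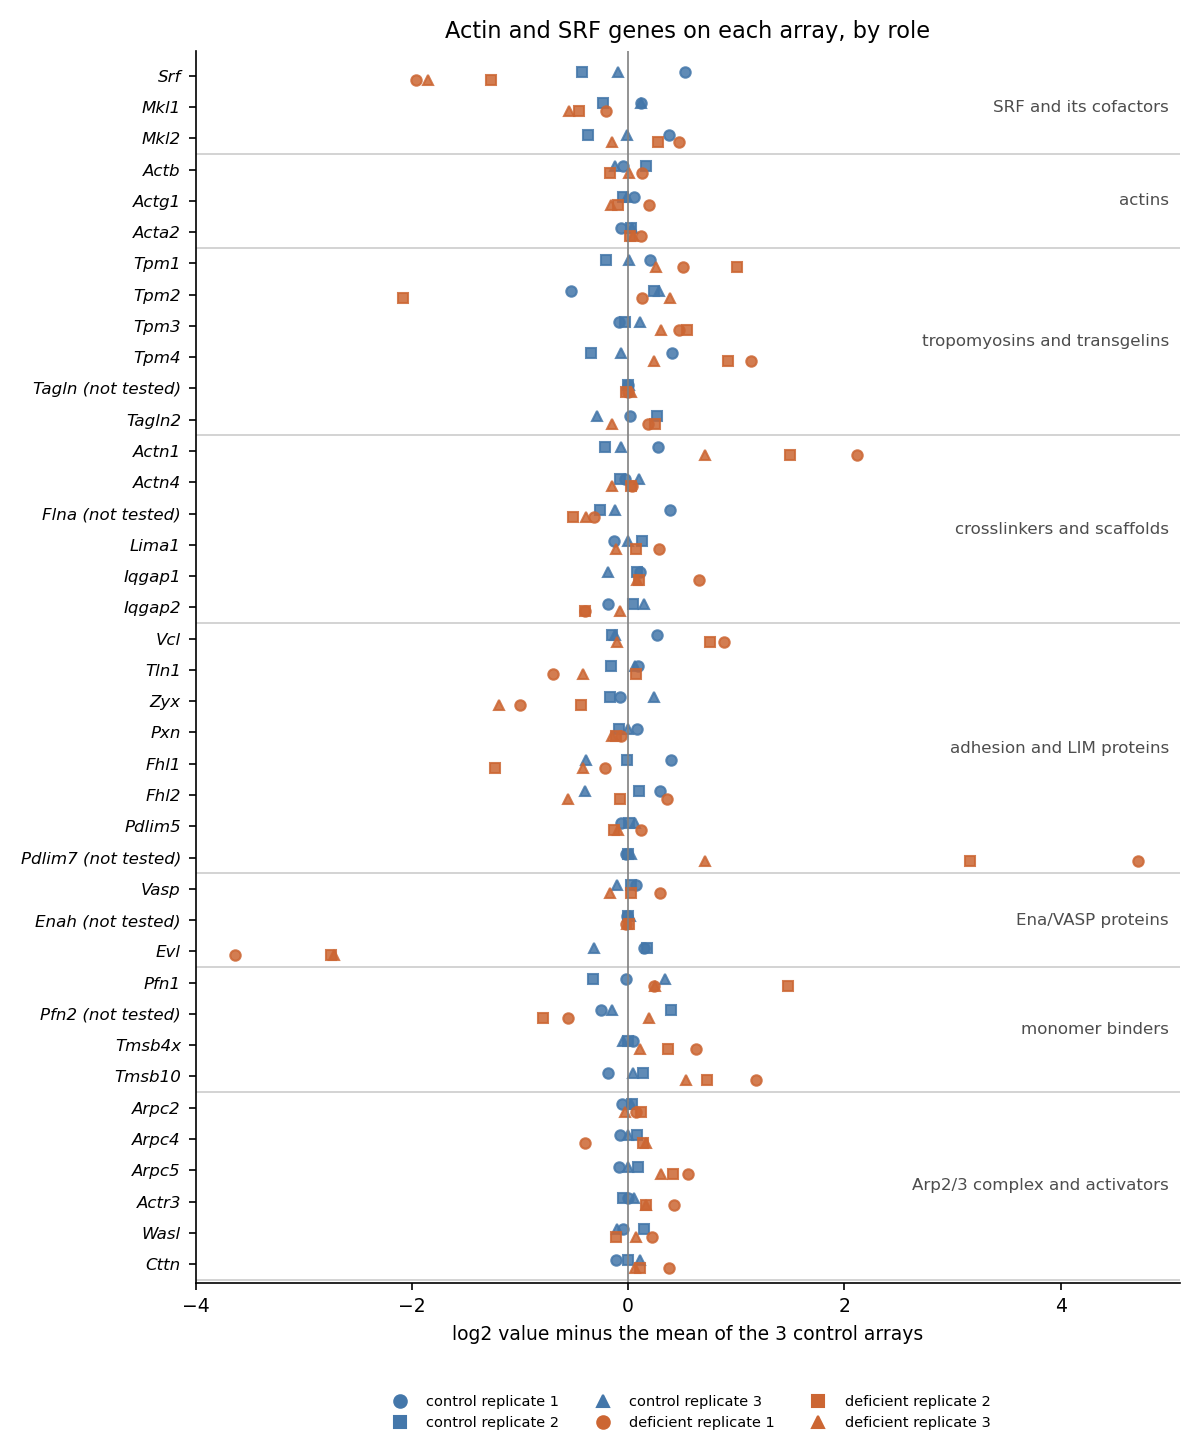
Each row is 1 gene and each point 1 array, placed by its log2 value minus the mean of the 3 control arrays, with controls in blue and deficient arrays in orange and the marker shape giving the replicate number. Srf and Evl lie well to the left in all 3 deficient arrays, Actn1, Tmsb10 and Pdlim7 lie to the right, and the actins and most Arp2/3 genes stay close to 0.

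Srf stood lower on every deficient array. It read 8.93, 7.98 and 8.31 in control replicates 1, 2 and 3, and 6.44, 7.14 and 6.55 in deficient replicates 1, 2 and 3. Every deficient value lay below every control. The change was -1.69 ± 0.30, a 3.23-fold fall (limma adjusted p = 0.042). This call was narrow, since Srf failed in each of the 6 fits that left out 1 array, with changes from -1.91 to -1.43 and adjusted p from 0.051 to 0.140. A further Srf probe set gave -1.06, again with all deficient values below all controls. It was not called in a fit of single probe sets, added after the data were seen (limma adjusted p = 0.235). The probe set used is of a design that can match several transcripts.

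The cofactors did not pass. Mkl1, the first of the pair of myocardin-related factors that carry the actin signal to SRF, read 8.30, 7.94 and 8.30 in controls and 7.98, 7.72 and 7.63 in deficient arrays. Its groups overlapped at deficient replicate 1, and its change was -0.40 with a 95% interval from -0.84 to 0.03 (limma adjusted p = 0.323). Mkl2, its relative, read 8.86, 8.10 and 8.46 in controls and 8.95, 8.75 and 8.33 in deficient arrays, which overlap throughout. Its change was 0.20 with an interval from -0.41 to 0.81.

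The promoters of some members carry the site that SRF binds, and they are shown because Srf is itself among them. RefSeq promoter windows (GRCm38.p6, 250 bases before to 50 after an annotated start) matched 38 of the 42 genes, those of Actb, Cttn, Pxn and Tagln not being among them. The CArG box was searched as its 10-base consensus with no mismatch, which reads the same on both strands. It was present for 7 of the 38 genes (18.4%), beside 1.81% of all 27025 genes with a window. Of 14 members on a list of known SRF targets 5 held it, and of the other 24 members 2 held it. With 1 mismatch allowed the shares were 34.2% of members and 23.8% of all genes. The stretches below are 100 bases long and lie upstream of the start, read on the strand of the gene, with the box in capitals. They run from 127 to 28 bases before the start for Srf, 135 to 36 for Actg1 and 147 to 48 for Fhl1. The span is 250 to 151 for Vcl and 100 to 1 for Lima1 and Fhl2.

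Srf, chr17:46556190-46556289, minus strand: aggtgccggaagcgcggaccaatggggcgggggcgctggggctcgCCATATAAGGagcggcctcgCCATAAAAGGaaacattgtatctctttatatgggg
Actg1, chr11:120348531-120348630, minus strand: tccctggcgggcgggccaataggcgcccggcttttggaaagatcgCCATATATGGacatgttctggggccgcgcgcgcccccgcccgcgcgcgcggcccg
Lima1, chr15:99820150-99820249, minus strand: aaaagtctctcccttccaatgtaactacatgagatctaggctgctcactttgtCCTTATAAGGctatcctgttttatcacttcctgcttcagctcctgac
Vcl, chr14:20929148-20929247, plus strand: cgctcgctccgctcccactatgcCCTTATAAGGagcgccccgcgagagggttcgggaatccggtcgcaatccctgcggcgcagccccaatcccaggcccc
Fhl1, chrX:56779536-56779635, plus strand: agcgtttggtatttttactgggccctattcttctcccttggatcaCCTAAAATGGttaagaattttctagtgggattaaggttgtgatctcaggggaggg
Fhl2, chr1:43163962-43164061, minus strand: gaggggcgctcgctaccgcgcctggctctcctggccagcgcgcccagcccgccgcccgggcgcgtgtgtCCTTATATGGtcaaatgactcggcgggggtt

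The Srf window holds 2 boxes, whose first bases lie 82 and 62 bases before the start. Those of Actg1 and Lima1 lie 90 and 47 bases before it, and that of Vcl 227 bases before it. For Fhl2, a box begins 31 bases before the start of the printed window and another 96 bases before a different annotated start. Arpc4, not printed here, holds a box at the far edge of its window, 250 bases out. The genes with a box did not move together. Srf fell, while the changes of the others were -0.62 for Fhl1, -0.09 for Fhl2, -0.03 for Arpc4, -0.02 for Actg1, 0.08 for Lima1 and 0.51 for Vcl, none of them called. Among all tested genes with a box in the window, 124 in number, 3 were called lower and 1 higher (3.23%, beside 1.93% of the 7293 tested genes with a window), and the median change was -0.08 against -0.04. The 4 were Srf, the calponin Cnn2 (-2.24), Asb2 (at least 2.84-fold lower against the level 5) and the myosin light chain Myl7 (1.67), the last 3 named after their values were seen. Asb2 lay at or below 5 on every deficient array, and so passed the filter only through the controls.

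The actins overlapped between the groups. Actb, the beta-actin gene, read 15.26, 15.47 and 15.19 in controls and 15.43, 15.14 and 15.32 in deficient arrays. The values interleave, and the change of -0.01 had a 95% interval from -0.41 to 0.39, its sign turning under several alternatives, centring of the arrays and renewed quantile normalization included. Acta2, the smooth muscle actin, read 5.60, 5.69 and 5.70 in controls and 5.78, 5.68 and 5.70 in deficient arrays, a change of 0.06 with an interval from -0.28 to 0.40. Actg1, which encodes gamma-actin, gave -0.02 with an interval from -0.41 to 0.37. The intervals of all 3 leave out a change of 1 in either direction. A second Actb probe set gave 0.20, with the deficient arrays above the controls.

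Tropomyosins wrap along the filament and set which other proteins can bind it. None of the 5 tested members of this role was called, although 3 had an unadjusted p under 0.05 with higher deficient means, a p that 16.9% of all genes tested reached. Tpm3 read 13.37, 13.43 and 13.56 in controls and 13.93, 14.00 and 13.76 in deficient arrays. All deficient values lay above all controls, by a change of 0.44 ± 0.16 (limma adjusted p = 0.237). Tpm1 and Tpm4, named after their values were seen, gave 0.59 and 0.76, with groups that did not overlap for Tpm1 and did for Tpm4. Tpm2 gave -0.52, which rests on deficient replicate 2, at 5.31 where the other 5 arrays lay between 6.87 and 7.78. Without that array its change was 0.26. Tagln2, a calponin-like filament binder, gave 0.09. Tagln, a marker of smooth muscle, read between 1.79 and 1.83 on all 6 arrays.

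Actn1, an alpha-actinin that crosslinks filaments and links them to adhesions, had the highest change among the tested members, and it missed the threshold. It read 8.41, 7.91 and 8.06 in controls and 10.25, 9.63 and 8.84 in deficient replicates 1, 2 and 3. Every deficient value lay above every control, but deficient replicate 3 stood closest to them. The change was 1.44 ± 0.36, or 2.72-fold, with a limma adjusted p of 0.127. Without deficient replicate 3 it was 1.81 and passed (adjusted p = 0.031). Actn4, its close relative in epithelia, overlapped between the groups, at -0.03 with an interval from -0.39 to 0.33.

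The other crosslinkers and scaffolds differed little. Iqgap2, an IQGAP scaffold, read 12.99, 13.22 and 13.32 in controls and 12.78, 12.78 and 13.11 in deficient arrays. Deficient replicate 3 fell inside the control range, and the change was -0.29 with an interval from -0.71 to 0.13. Iqgap1, the related scaffold that binds Rac1 and Cdc42, gave 0.28, and Lima1, a LIM protein that stabilises filaments, gave 0.08. Flna, a filamin, read between 3.68 and 4.57 on the 6 arrays and was not tested.

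Adhesion and LIM proteins tie filaments to integrins and junctions, and none of the 7 tested was called. Zyx, encoding zyxin, a LIM protein of adhesions under tension, came nearest on the lower side. It read 8.03, 7.94 and 8.34 in controls and 7.11, 7.67 and 6.91 in deficient arrays, all of these below all controls. Its change was -0.88 ± 0.24, or 1.84-fold (limma adjusted p = 0.163), and it stayed uncalled in all 18 alternatives. Pxn, which encodes paxillin, an adhesion adaptor, read 12.001, 11.84 and 11.92 in controls and 11.85, 11.81 and 11.77 in deficient arrays, overlapping by 1 array, with a change of -0.11 and an interval from -0.45 to 0.24. Vcl (vinculin), Tln1 (talin), Fhl1, Fhl2 and Pdlim5 gave 0.51, -0.34, -0.62, -0.09 and -0.03, with overlapping groups in each. A second Tln1 probe set above 5 gave -0.57, with all deficient values below all controls. It was not called in the fit of single probe sets (limma adjusted p = 0.249).

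Pdlim7, a PDZ and LIM domain protein that binds tropomyosin-coated filaments, had higher values in the deficient arrays without overlap and could not be tested under the filter. It lay near the floor in all controls, at 3.48, 3.50 and 3.52, and read 8.22, 6.66 and 4.21 in deficient replicates 1, 2 and 3. The deficient arrays lay above the controls, but replicate 3 stayed below the level 5. In a fit of all 18193 genes without the filter its change was 2.86 ± 1.05, with a limma adjusted p of 0.440, so it did not pass.

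**Figure D2:**
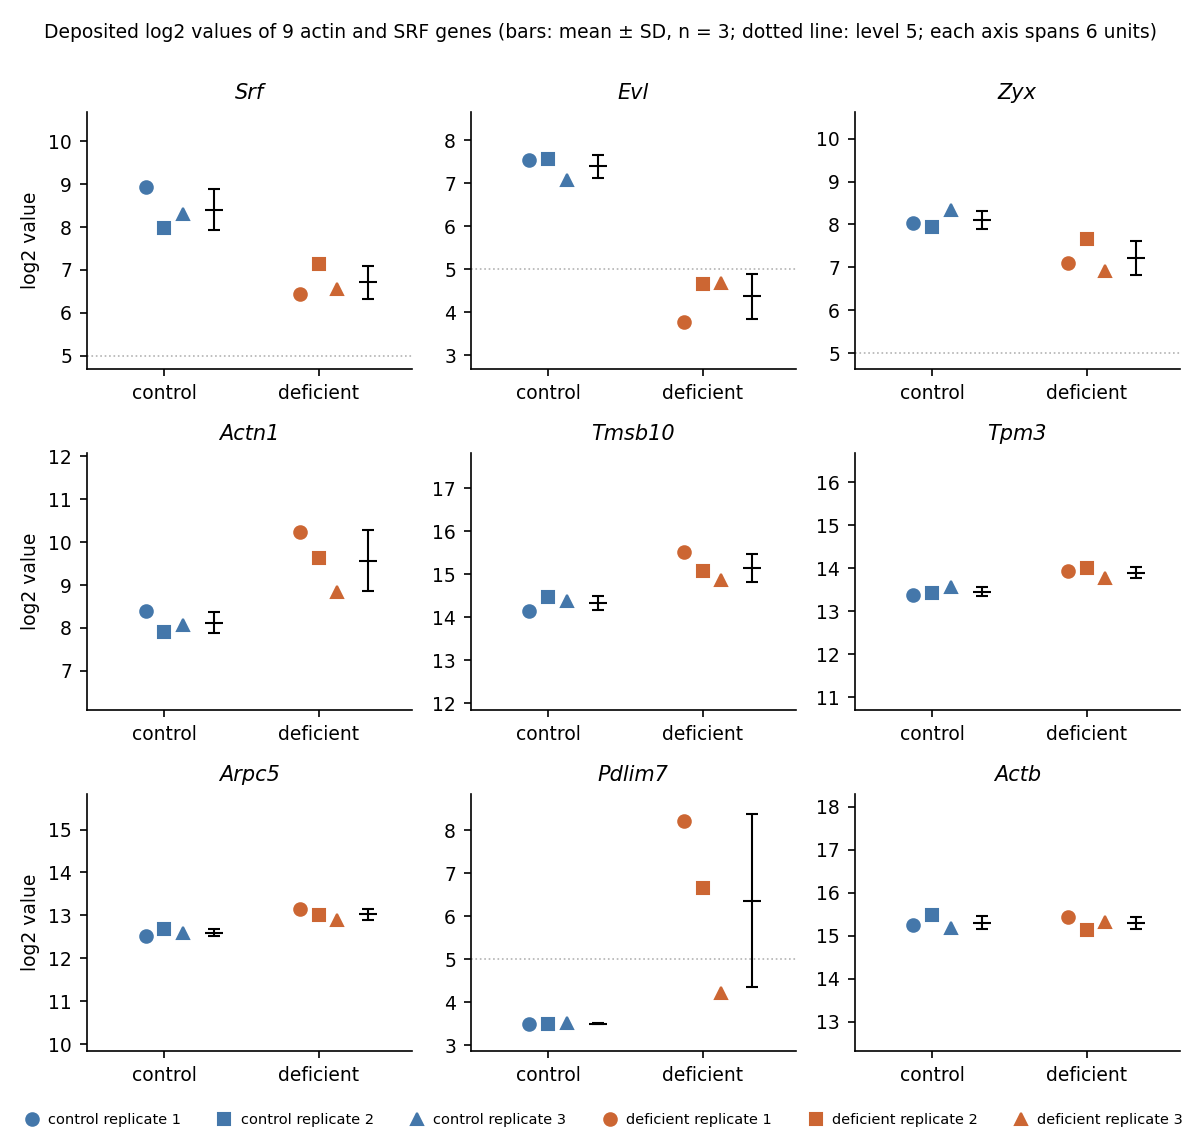
Deposited log2 values of 9 members on each array, with the mean ± SD of each group (n = 3) beside the points and the level 5 as a dotted line where it falls in range. Each panel spans 6 log2 units around its own values. Srf, Evl and Zyx lie lower in the deficient arrays without overlap, Actn1, Tmsb10, Tpm3, Arpc5 and Pdlim7 higher without overlap, and Actb overlaps.

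Ena/VASP proteins sit at growing filament ends and add actin there, and the members of this family parted company. Evl read 7.54, 7.57 and 7.08 in controls and 3.76, 4.65 and 4.68 in deficient replicates 1, 2 and 3. All deficient values lay below 5 and more than 2 units below the lowest control, a fall of at least 5.27-fold against the level 5 (fitted change -3.03 ± 0.29, limma adjusted p = 0.0035). Evl was called in all 16 alternatives that tested it, with adjusted p up to 0.043. Its second probe set above 5 gave -0.68, also with no overlap, but read 4.97, 5.01 and 5.12 in the deficient replicates, near that level. It was not called in the fit of single probe sets (limma adjusted p = 0.235). Vasp, the founding member, read 12.18, 12.14 and 12.01 in controls and 12.41, 12.14 and 11.95 in deficient arrays. These overlap, and its change of 0.05 had an interval from -0.37 to 0.47, although it turned to -0.07 without deficient replicate 1. Enah read between 2.93 and 2.96 on all 6 arrays.

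Evl is abundant in blood cells, and markers of T cells and intraepithelial lymphocytes were lower on the same arrays. Of 12 tested markers of these cells 10 were called lower, beside 2.09% of all genes tested called in either direction. The summed linear level of the 15 on the array was 83.9% to 109% of the control mean in controls and 5.79% to 23.4% in deficient arrays. Myeloid markers stood at 73.2% to 149% and 35.3% to 66.5%, with 4 of 7 tested called lower. Among the defining T cell genes, Cd3d read 2.85, 2.61 and 4.80 and Cd7 2.72, 4.20 and 4.77 in the deficient replicates, all below 5, while Ptprc, shared by leukocytes, read 8.18, 8.54 and 9.16. A marker below 5 on all deficient arrays could be tested only through the controls, where it was high, which partly fixes the counts called. At or below 5 on every array were 2 T cell and 3 myeloid genes. In bulk RNA, fewer cells of a type and less RNA per cell cannot be told apart. The part of these cells in the fall of Evl or Srf was not tested.

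Monomer binders hold free actin subunits for filament growth, and the means of all 3 tested members were higher in deficient mice, with none called. Tmsb10, which encodes thymosin beta-10, read 14.15, 14.47 and 14.38 in controls and 15.51, 15.07 and 14.87 in deficient replicates 1, 2 and 3, all above the controls. Its change was 0.82 ± 0.21, or 1.76-fold, with a limma adjusted p of 0.149. Its other 3 probe sets above 5 gave 1.43, 1.93 and 0.36, each with every deficient array above every control. In a fit of 14478 single probe sets, added after the data were seen, the one at 1.93 ± 0.24 passed (limma adjusted p = 0.012) and the other 3 did not, beside 1.47% of all probe sets called. These probe sets are of designs that can match several transcripts. Tmsb4x, its X-linked relative, gave 0.37 without overlap of the groups, and Pfn1, encoding profilin, gave 0.65 with overlap. Pfn2 read between 3.43 and 4.61 and was not tested.

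The Arp2/3 complex starts branched filaments on the side of existing ones, and Wasl and Cttn activate it or hold its branches. None of the 6 tested members of this role was called, and the widest change was 0.42. Arpc5, a subunit of the complex, read 12.51, 12.69 and 12.60 in controls and 13.15, 13.02 and 12.90 in deficient arrays. The deficient arrays all lay above the controls, by 0.42 ± 0.16 (limma adjusted p = 0.248). Actr3, which encodes Arp3, gave 0.25, and its 3 probe sets, at 0.25, 0.28 and 0.55, all separated the groups in the same direction. Cttn, encoding cortactin, read 13.81, 13.93 and 14.03 in controls and 14.30, 14.03 and 13.98 in deficient arrays, overlapping, with a change of 0.18 and an interval from -0.21 to 0.57. Arpc2, Arpc4 and Wasl gave 0.06, -0.03 and 0.06.

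**Figure D3:**
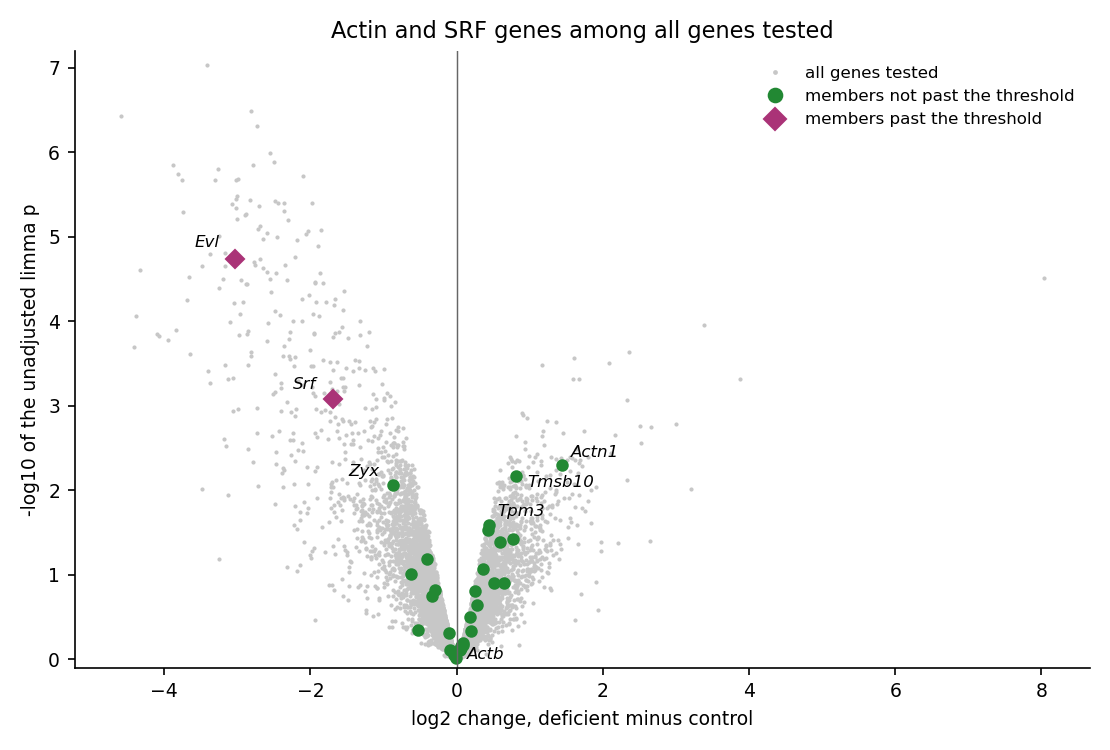
Log2 change against -log10 of the unadjusted limma p for all 8893 genes tested (grey), with the 34 members in green, or as purple diamonds where called. Srf and Evl are the called members, while Actn1 and Tmsb10 lie at the top of the uncalled members on the higher side and Zyx on the lower side.

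Several genes have more than 1 probe set, and these did not always give the same answer. Of 19 members with several probe sets above 5 on at least 3 arrays, 6 had changes in both directions. Tpm1 is the clearest, at 0.59, 1.68 and -0.28. The probe sets of Tpm3 gave 0.44, 2.01 and 0.33, that at 2.01 ± 0.69 resting on widely spread controls, 7.79, 5.56 and 8.14 (limma adjusted p = 0.239 among single probe sets). In all the rest of the 19 the probe sets kept 1 direction, those of Srf, Evl, Tmsb10 and Actr3 among them.

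**Figure D4:**
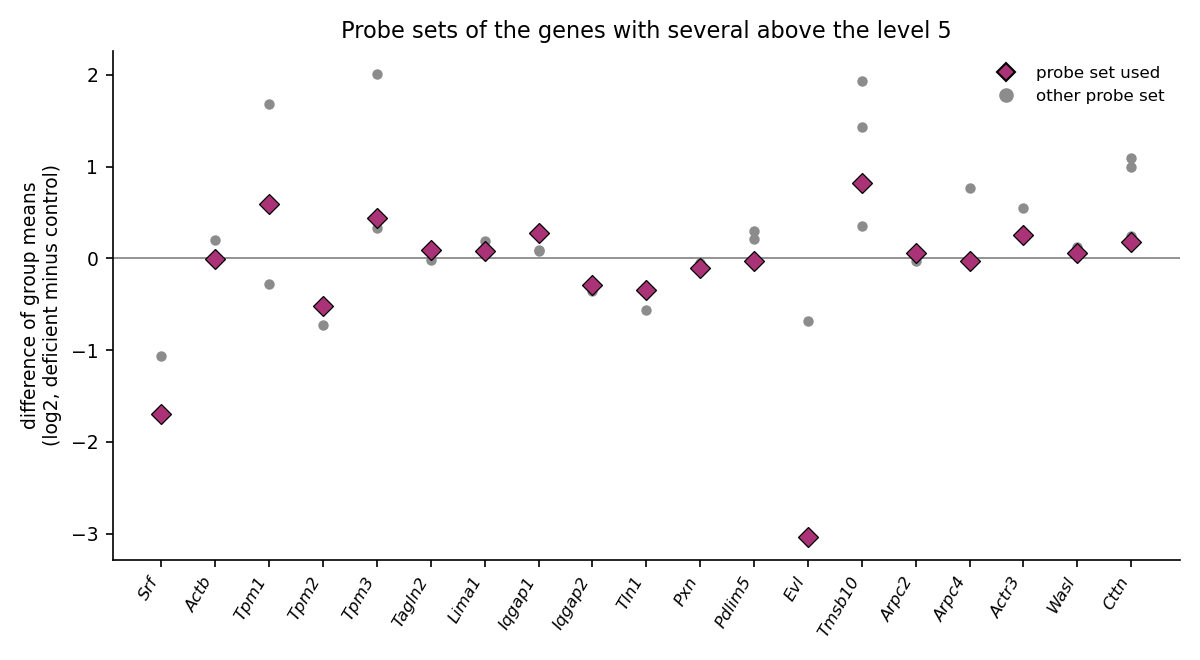
Difference of the group means on the log2 scale for every probe set above 5 on at least 3 arrays, for the 19 members with more than 1 such probe set; the purple diamond is the probe set used. Srf and Evl lie below 0 and Tmsb10 and Actr3 above 0 with all their probe sets, while Tpm1 and Pdlim5 have probe sets on both sides.

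The deficient arrays were not equal to one another. Among the 7 tested members whose deficient arrays all lay above the controls, deficient replicate 3 was nearest to the controls in 6 and deficient replicate 1 farthest in 5. The list of general epithelial markers stood in the same order. The summed linear level of their 11 genes, all tested and none called, was 96.0% to 102% of the control mean in controls and 128%, 118% and 104% in deficient replicates 1, 2 and 3. Its median change was 0.12, with 7 means higher and 4 lower, from -0.27 to 0.95. The enterocyte markers did not follow that order, with a summed level of 87.9% to 114% in controls and 85.6%, 97.3% and 95.8% in deficient replicates 1, 2 and 3, and 0 of 9 called by limma (1 with an unadjusted p under 0.05). The part of these marker lists in the higher means of Actn1, Tmsb10 and the others was not tested. Smooth muscle, whose cells are rich in Acta2 and Tagln, left little trace, as Myh11, Des, Cnn1, Actg2, Lmod1, Synm and Smtn read between 1.59 and 3.27 on all 6 arrays. The wider list of 15 smooth muscle and stromal genes, 5 tested and 0 called by limma (3 with an unadjusted p under 0.05), stood at 68.9% to 154% in controls and 45.01% to 67.3% in deficient arrays. All 6 endothelial markers lay at or below 5 throughout.

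Among other genes of actin regulation, calls were all on the lower side. The lists outside the members held 114 genes on the array and 78 tested, of which 17 were called lower and 0 higher (21.8%, beside the 2.09% above; 32 had an unadjusted p under 0.05, beside 16.9% of all genes tested). The count was 10 without control replicate 1, 11 without control replicate 3 and 23 with array weights. The lists were drawn up with results of these data known, so the count supports no direction. At or below 5 on all deficient arrays were 9 of the 17, which passed the filter only through the controls and so partly fix that count. Of the 17, 11 belong to a list of actin regulators of leukocytes, with 11 tested. Of these, 5 lay at or below 5 on all deficient arrays and so passed the filter only through the controls, where they were high, which partly fixes the count. With a filter at the level 6 the list gave 6 calls, and 5 without a filter or with the mean of probe sets. It gave 7 with low values raised to 5 or with probe sets that can match several transcripts left out. Without control replicate 1 or 2 it gave 6 or 7. The other 6 had fitted changes of -2.82 for Coro1a, a coronin, -2.71 for the plastin Lcp1, -1.93 for the kindlin Fermt3, -2.40 for Arhgdib, -1.48 for Cytip and -3.02 for Arhgap30. Against the level 5, Was, the blood cell relative of Wasl, was at least 1.41-fold lower, the GTPase Rac2 at least 1.52-fold, Dock2 at least 1.97-fold, and the myosins Myo1f and Myo1g at least 1.44-fold and 2.10-fold. Coro1a, Was, Lcp1, Fermt3, Myo1f and Arhgap30 passed in each fit that left out 1 array. Arhgdib passed only without deficient replicate 2, Cytip failed without any 1 control, Rac2 without deficient replicate 2 or control replicate 1 or 3, Myo1g without control replicate 1 or 2 or deficient replicate 2, and Dock2 without control replicate 1 or 2 or deficient replicate 1 or 2 (limma adjusted p up to 0.130). That list stood at 94.5% to 106% of the control mean in controls and 21.3% to 24.97% in deficient arrays.

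The 6 called genes outside it were 3 tied to SRF and 3 of other lists. Elk3, an SRF partner of the ternary complex family, Egr3, an immediate early factor, and Cnn2 (-2.24), a calponin, came from the list of further SRF targets and partners, in which 3 of 16 were called. That count was 9 with array weights, 5 without control replicate 2, and 1 without control replicate 3, without a filter, with a filter at the level 6, with the mean of probe sets or with low values raised to 5. The median of that list was -1.04 and 13 of the 16 means were lower, beside 4852 of all 8893 genes tested. Among the 13 were the uncalled immediate early genes Egr1 (-0.85), Fos (-0.46), Junb (-1.04) and Egr2 (-2.72), named after their values were seen. The 3 higher means were those of Itgb1 (0.83, all deficient arrays above all controls), Filip1l (0.69) and Cnn3 (0.48), none of them called. Known SRF targets among the members did not share that fall. Of these, 13 were tested and 1 was called, Srf itself (7.69%, beside 2.09% of all genes tested). Their median change was -0.03, with 9 means lower and 4 higher. The remaining calls of the 6 were Cyfip2, a WAVE complex subunit, and the membrane linkers Rdx and Msn (-2.21), relatives of ezrin, whose gene Ezr gave 0.14. Elk3, Egr3, Cyfip2 and Rdx lay at or below 5 on every deficient array, and so passed the filter only through the controls. Against that level they were at least 1.45-fold, 2.46-fold, 1.45-fold and 2.49-fold lower. Egr3 failed in 5 of the 6 fits that left out 1 array and passed only without control replicate 1. The call of Msn was lost whichever control was left out, and that of Cnn2 on leaving out control replicate 1 or control replicate 3. Over these 3 genes the limma adjusted p reached 0.141.

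Formins and other nucleators of unbranched filaments gave 0 called of 7 by limma, with 1 at an unadjusted p under 0.05, the formin Daam1 at 0.82 (limma adjusted p = 0.248).

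**Figure D5:**
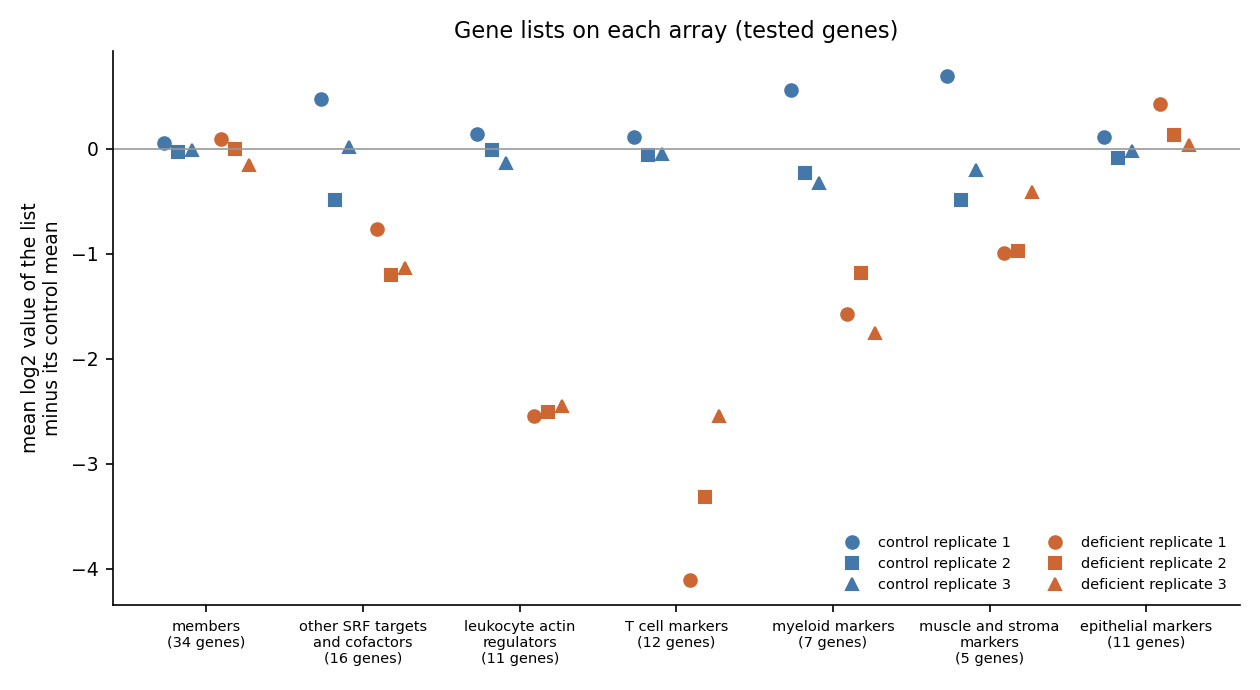
Mean log2 value of each gene list on each array minus its mean over the 3 controls, over tested genes, for the members, a pair of the pathway lists and markers of 4 cell types. The members stay between -0.16 and 0.09 on the deficient arrays. Further SRF targets, leukocyte actin regulators, T cell markers and myeloid markers lie below every control there. Muscle and stroma markers overlap the controls, and epithelial markers reach 0.42 in deficient replicate 1.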

How the data were processed

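The table held 45101 probe sets on 6 arrays, as log2 expression values made by the authors; Partek 6.5 and GCRMA, which corrects background by probe sequence, are named in the submitters' processing notes with no role or order. The log2 scale was inferred from the deposited values (0.42 to 16.4). Scanner files were not analysed here. Precision is limited by the number of arrays. Control probe sets (64) were left out. In the platform annotation, 34945 probe sets had 1 symbol, 932 had several and 9160 had no symbol.

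The comparison used lmFit and eBayes of limma 3.58.1 (R 4.3.3) with no covariate, checked on simulated data. Errors are standard errors, and intervals are 95% intervals of that fit. Arrays are labelled as separate biological replicates. With 3 against 3, a two-sided permutation test of 1 value cannot go below 0.10, so none is given. Values on every array are given for Srf, Mkl1, Mkl2, called members, members whose groups do not overlap with a change of at least 1, and per role the members with the smallest p and the highest mean. Pathway genes are named where called, or by smallest p. Other genes with a value were named after their values were seen. Members and lists were chosen with earlier results of these data known. Same-numbered arrays did not deviate together (correlations 0.05, -0.29 and 0.00). Arrays of unlike number ran from -0.29 to 0.24. With 3 arrays per group, deviations from the group mean are tied to one another, so these values cannot exclude pairing. Alternatives changed moderation, weights, filter, normalization, probe sets, floor and block, and left out each array. The result of 1 further pathway list, counted in the total over the lists, is not reported here.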

Additional observations from a re-analysis of the deposited data

How the results depend on the processing

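Of 261 comparisons of 15 named members with an alternative, 240 kept their direction and side of the threshold. Srf was called in 7 of 18 alternatives, and its change stayed lower in all. It failed without a filter, with the mean of probe sets, and with probe sets that can match several transcripts left out. It also failed in each fit without 1 array, among single probe sets and with the replicate block (limma adjusted p = 0.134). The count of members called lower was therefore 1 without a filter, 1 with the replicate block, 1 among single probe sets (where 1 was higher) and 1 in every fit without 1 array (with 0 to 1 higher). It was 0 with the mean of probe sets and with probe sets that can match several transcripts left out, where Evl was not tested. The block on replicate number called 141 genes in all, against 186, and whether the numbers pair the arrays is unknown here. Called genes in the pathway lists, 17 in the fit reported, were 8 without a filter, 9 with a filter at the level 6, 7 with the mean of probe sets, 10 with low values raised to 5, and 10 to 15 without 1 array, but 23 with array weights. The median change of members ran from 0.01 to 0.13. Actb turned to 0.021 with array weights, 0.0038 after renewed quantile normalization, 0.066 with centred arrays, 0.096 with the mean of probe sets and 0.20 among single probe sets, and ran from -0.079 to 0.073 without 1 array. Vasp ran from -0.070 to 0.16 without 1 array.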
